A study of Mus musculus with 2 samples.

Results

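The genes described here are 38 mouse genes of ribosome biogenesis and Myc-type growth, out of 31053 mouse genes in the count matrix of T cells from B16 melanoma tumors. They were listed by name with measured values of these same cells in view, from the contrasts between Treg subsets, between T cell lineages, and between cells with and without Ccl1, Csf2 and Tnfsf11 transcripts. The levels and ratios in those contrasts are therefore a description of how the genes were distributed, and they support nothing beyond that.

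The study sorted TCR-β+ T cells on day 9 from intradermal tumors of C57BL/6J mice. The tumors came from B16, a melanoma line of the same mouse strain, or from B16–IL-33, the same line engineered to secrete the cytokine IL-33. Cells of both tumors carried hashtag antibodies (2 tags for each tumor), were pooled, and were read for gene expression, hashtags and TCR chains, with 1 library for each. The tags of a tumor are not stated to be separate animals, so each tumor was taken as 1 sample, and with 1 pool no test between groups was possible. No other treatment was given, and both tumors shared the pool, the sort and the sequencing.

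Of 14035 barcodes, 9844 had at least 200 detected genes and under 5% mitochondrial UMIs (unique molecular identifiers, which count captured RNA molecules), with 40091218 UMIs in all and a median of 2639 per cell. Treg cells had at least 1 Foxp3 UMI and none of Cd8a or Cd8b1 (2833 cells), Tconv cells had Cd4 without Foxp3 or either Cd8 gene (1813 cells), and CD8+ T cells had more Cd8a and Cd8b1 than Cd4 and Foxp3 UMIs (1538 cells). The remaining cells had no such marker transcript or a mixture of them, and these 3 lineages held 62.8% of the cells. The defining markers were present where the names require them. Treg cells had Ctla4 at 1054, Ikzf2 at 755 and Il2ra at 411 CPM (UMIs of a gene per 1000000 UMIs), against 396, 259 and 107 CPM in Tconv cells, and Cd3d lay between 994 and 1047 CPM in all 3 lineages. CD8+ T cells had Ctla4 at 228, Ikzf2 at 124 and Il2ra at 62.3 CPM, each below the Tconv cells. The Tconv gate rests on the absence of a Foxp3 UMI, so a Treg cell whose Foxp3 was not captured can fall in it. The share of such cells was not tested. Levels are CPM summed over the cells of a group, and intervals are 95% intervals that cover counting error only.

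Ribosomes are assembled in the nucleolus, where RNA polymerase I makes the ribosomal RNA precursor, box C/D particles methylate it, box H/ACA particles convert uridines to pseudouridine, and assembly factors cut it and load ribosomal proteins. The transcription factor Myc, which binds DNA with Max at E-boxes such as CACGTG, raises many of these genes when a resting lymphocyte is activated and grows. Polyamines belong to the same growth response, because spermidine is needed for the hypusine residue of the translation factor encoded by Eif5a.

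The E-box CACGTG was searched in RefSeq promoter windows (GRCm38.p6) that run from 250 bases before to 50 bases after each annotated start site. The motif is a palindrome, so both strands are covered by one search. Of the 38 genes, 30 had a window, and 10 of the 30 held the motif (33.3%, interval 17.3 to 52.8%). The share was 8.09% of all 27025 genes with windows, 12.3% of the 6310 genes with at least 200 UMIs in the 3 lineages, and 20.2% of 109 other ribosome biogenesis genes. The last of these lies inside the interval above. The 38 genes were listed by name as Myc-type growth genes, so a higher share than over all genes follows in part from the choice. A motif in any window of a gene counted, with 41 windows for the 30 genes and 32851 for the 27025. Atad3a, Npm1, Fbl, Rrs1, Rrp12, Bop1, Myc and Srm had no window in the table. The stretches of 30 bases below show the E-box of genes from different steps of the pathway, 5′ to 3′ on the strand of the gene, with the motif in capitals. Pus7 and Trmt61a act on RNA bases, Pes1 and Nle1 on the large subunit, Wdr43 on the small subunit, Eif5a in translation and Dnph1 on nucleotides.
Pus7, chr5:23783666-23783695, minus strand: ggcgcagcgccgCACGTGtgcgagcccggc
Trmt61a, chr12:111678118-111678147, plus strand: ccgccgtggagcCACGTGtggagccgggag
Mettl1, chr10:127041950-127041979, plus strand: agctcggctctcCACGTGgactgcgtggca
Pes1, chr11:3963965-3963994, plus strand: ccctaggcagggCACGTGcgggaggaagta
Nle1, chr11:82908355-82908384, minus strand: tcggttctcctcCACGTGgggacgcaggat
Wdr43, chr17:71616220-71616249, plus strand: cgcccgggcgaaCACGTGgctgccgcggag
Eif5a, chr11:69921443-69921472, minus strand: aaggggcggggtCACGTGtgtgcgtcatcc
Dnph1, chr17:46496760-46496789, plus strand: gctttcccaggtCACGTGgtagcggcggca
Mybbp1a and Timm8a1 also held it. In 6 of the 8 stretches shown the motif began within 30 bases after a start site, as in Pes1 at 2, Wdr43 at 17, Nle1 at 23, Trmt61a at 25, Pus7 at 28 and Mettl1 at 30. A match is a description of these letters, and binding of Myc was not measured.

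The counts of the group were uneven. Npm1 (nucleophosmin), a histone and ribosome chaperone of the nucleolus, gave 26.4% of the 154817 UMIs of the 38 genes. Odc1 (ornithine decarboxylase), the rate-limiting enzyme of polyamine synthesis, gave 15.9%, Eif5a 15.5%, and Ncl (nucleolin), an RNA-binding protein of the nucleolus, 9.19%. Akap1, which anchors protein kinase A at mitochondria, gave the fewest, at 182 UMIs. These are UMI counts of RNA ends that were not scaled to transcript length, so they rank how much of a sum each gene carries. Npm1 and Eif5a have processed copies elsewhere in the genome, and reads that fit a copy equally well may be missing from their counts.

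CD8+ T cells had the highest summed level of the 3 lineages, and Odc1 ran against the other 37 genes. The 38 genes together stood at 3406 CPM in Tconv cells, 3747 CPM in Treg cells and 4252 CPM in CD8+ T cells. Without Odc1 the order of the first pair turned, with 2683 CPM in Treg cells, 2881 CPM in Tconv cells and 3949 CPM in CD8+ T cells. Odc1 itself stood at 1064 CPM in Treg cells, 524 CPM in Tconv cells and 302 CPM in CD8+ T cells. In cells thinned to 1500 UMIs, 62.5% of Treg cells, 40.5% of Tconv cells and 27.2% of CD8+ T cells held an Odc1 UMI. The same shares without thinning were 76.6%, 54.0% and 54.2%, so the step between Tconv and CD8+ T cells was seen at equal depth and not in the unthinned shares. The thinning left out 454 Treg, 322 Tconv and 109 CD8+ T cells with fewer UMIs. Odc1 is expressed widely, so no cell type of the sort could serve as its background, and 310 cells with myeloid markers and no CD3 UMI had it at 195 CPM.

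Between Treg and Tconv cells most genes of the group differed little, apart from Odc1. The ratio of the sums was 1.10 (1.08 to 1.12), and 0.931 (0.914 to 0.949) without Odc1. A gene was counted in a comparison if it had at least 50 UMIs in both groups together and at least 10 expected in the smaller group, and it was called past 1.5-fold in either direction. Of 37 counted genes, 2 were at least 1.5-fold higher in Treg cells, beside 11.7% of the 9922 genes counted, and 5 were lower, beside 6.94%. The median ratio of the 37 genes was 0.894, against 1.04 over the counted genes. The higher pair was Odc1 at 2.03 (1.95 to 2.11) and Ctps, the CTP synthase of nucleotide synthesis, at 1.61 (1.04 to 2.56), followed by Myc at 1.28 (1.10 to 1.5). The lowest were Trmt61a, which methylates tRNA, at 0.431 (0.271 to 0.683), the RNA polymerase I subunit Polr1b at 0.544 (0.326 to 0.911), and Rrp12, a small subunit factor, at 0.560 (0.362 to 0.868). Ncl had a ratio of 1.04 (0.982 to 1.10), Npm1 of 0.833 (0.805 to 0.861) and Srm, the spermidine synthase that uses the product of Odc1, of 0.735 (0.623 to 0.867). Melanoma markers stood at 104 CPM in Treg cells and 328 CPM in Tconv cells, and the ratio of the sums was 1.18 without cells that held 2 or more melanoma UMIs. Srm turned to 1.08 (0.892 to 1.32) without those cells. The Odc1 difference was not seen in cells below 1000 UMIs, at 1002 CPM (843 to 1182) in Treg and 1116 CPM (916 to 1346) in Tconv cells.

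CD8+ T cells were higher than Treg cells for most of the group. The ratio of the sums was 1.13 (1.12 to 1.15), and 1.47 (1.45 to 1.49) without Odc1. Of 38 counted genes, 18 were at least 1.5-fold higher, beside 7.45% of 10187 genes, and 1 was lower, beside 20.3%. The highest were Akap1 at 2.76 (1.58 to 5.0), Mettl1, the methyltransferase of tRNA guanosine, at 2.48 (1.97 to 3.15) and Srm at 2.15 (1.89 to 2.46). The lowest were Odc1 at 0.284 (0.273 to 0.296), the RNA helicase gene Ddx21 at 0.878 (0.806 to 0.955) and Dnph1 at 0.905 (0.703 to 1.16). Npm1 had a ratio of 1.58 (1.54 to 1.63) and Ncl of 1.24 (1.19 to 1.30). Myc itself was level, at 51.0 CPM in CD8+ T cells and 51.3 CPM in Treg cells, a ratio of 0.994 (0.880 to 1.12). By step of the pathway, the summed ratio was 2.10 for the 3 tRNA and RNA modification genes, 1.77 for the 4 mitochondrial genes, 1.60 for the 7 genes of box C/D and H/ACA particles, and 1.37 for the 9 genes of large subunit assembly. It was 1.45 for small subunit processing and 1.43 for rRNA synthesis and nucleolar proteins. Nucleotide metabolism at 1.09 (0.900 to 1.31) and Myc with Ifrd2 at 1.03 (0.923 to 1.16) were close to level. The polyamine and hypusine step, which holds Odc1, was lower at 0.694 (0.677 to 0.711).

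Against Tconv cells, which are the same cells as in the first comparison, CD8+ T cells had a ratio of 1.25 (1.23 to 1.27), and of 1.37 (1.35 to 1.40) without Odc1. Of 38 counted genes, 11 were at least 1.5-fold higher, beside 9.01% of 9664 genes, and 1 was lower, beside 16.2%. Akap1 at 2.44 (1.24 to 5.24), Ctps at 2.24 (1.46 to 3.53) and Dkc1, the pseudouridine synthase of H/ACA particles, at 1.82 (1.48 to 2.25) were highest. Odc1 at 0.577 (0.548 to 0.607), Trmt61a at 0.774 (0.513 to 1.17) and Wdr12, a large subunit factor of the complex with Pes1 and Bop1, at 0.781 (0.625 to 0.978) were lowest. Srm had a ratio of 1.58 (1.37 to 1.84), Npm1 of 1.32 (1.28 to 1.36), Ncl of 1.29 (1.22 to 1.36) and Myc of 1.28 (1.09 to 1.5).

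Both CD8+ T cell differences moved with depth and with the cell cycle. CD8+ T cells had a median of 4189 UMIs, against 2974 in Treg and 2543 in Tconv cells, and 37.4% of them, against 24.9% and 13.9%, held at least 3 UMIs of 27 cell cycle genes. With cells compared within bins of total UMIs, the ratio of the sums with Odc1 was 0.988 over Treg cells and 0.961 over Tconv cells. The 37 genes without Odc1 stayed higher in CD8+ T cells than in Treg cells in every bin. They stood at 2443 against 1842 CPM at 1000 to 2000 UMIs and 4995 against 4508 CPM above 10000. Over Tconv cells they were higher in every bin but the deepest. There they stood at 4995 against 5940 CPM, and 4961 against 4452 CPM without cells of 2 or more melanoma UMIs. Intervals overlapped below 1000 UMIs over Treg cells and below 4000 UMIs over Tconv cells. Over Treg cells 2 of 38 counted genes were then at least 1.5-fold higher, beside 5.63% of all counted genes, and 2 were lower, beside 16.2%. Over Tconv cells 1 of 38 was higher, beside 4.87%, and 6 were lower, beside 11.3%. Depth and cell state cannot be told apart here, because a growing cell also holds more RNA.

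**Figure D1:**
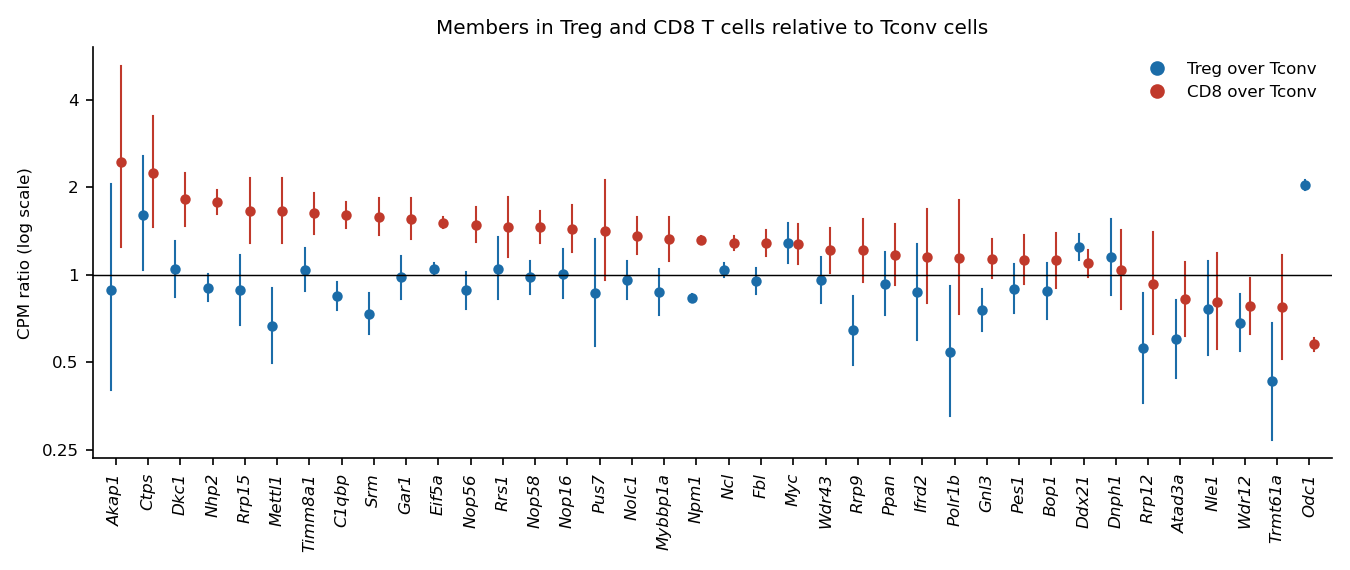
Ratio of CPM for each of the 38 genes on a log axis, Treg over Tconv cells in blue and CD8+ T over Tconv cells in red. Vertical lines are 95% intervals of counting error and the horizontal line is at 1. All points are filled, also that of Akap1 in blue, which was not counted. Odc1 lies at 2.03 in blue and 0.577 in red, the reverse of the order of most other genes.

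The 37 genes without Odc1 were higher in cells with more UMIs in every lineage. From cells of 1000 to 2000 UMIs to cells above 10000, they went from 1842 to 4508 CPM in Treg cells, from 2159 to 5940 CPM in Tconv cells and from 2443 to 4995 CPM in CD8+ T cells. Of the 33 deepest Tconv cells, 6 held at least 2 melanoma UMIs, and without these the value was 4452 CPM. Odc1 did not follow, at 1167 and 838 CPM in Treg cells, 642 and 509 CPM in Tconv cells, and 351 and 357 CPM in CD8+ T cells at the same ends of the range. Below 1000 UMIs it stood at 1002 CPM in Treg, 1116 CPM in Tconv and 365 CPM in CD8+ T cells.

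**Figure D2:**
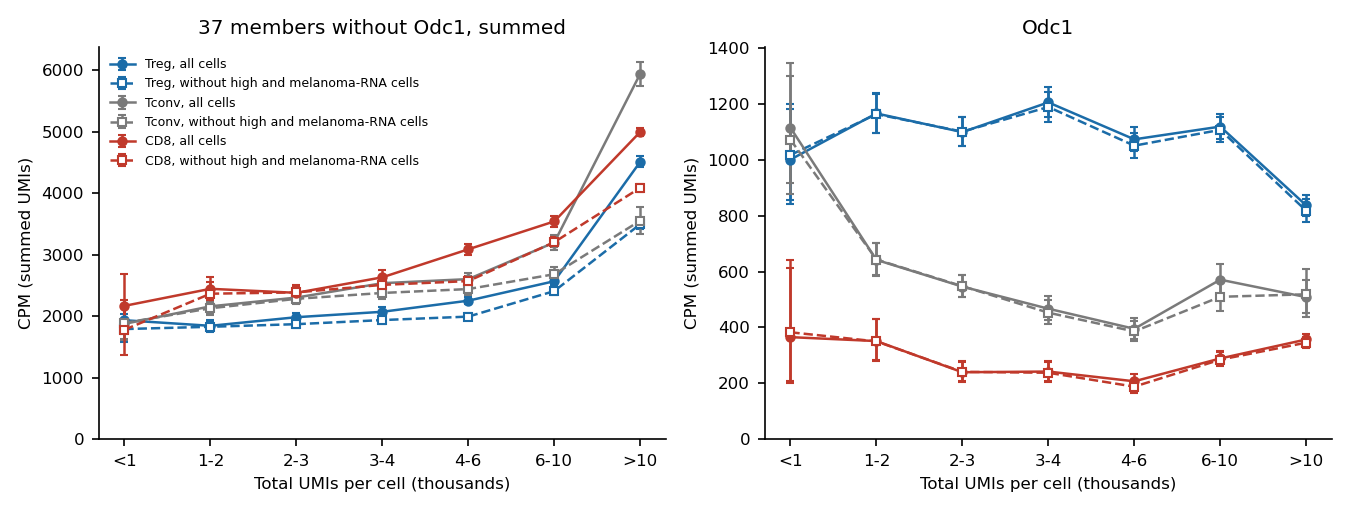
CPM of the 37 genes without Odc1 (left) and of Odc1 (right) by bin of total UMIs per cell in Treg, Tconv and CD8+ T cells, with filled points and solid lines for all cells and open points and dashed lines for cells left after taking out those with at least 2 melanoma UMIs and those at 8000 CPM or more of the 37 genes. The 37 genes reach 4508, 5940 and 4995 CPM in the deepest bin with all cells, while Odc1 is at 838, 509 and 357 CPM there.

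Within Treg cells, those with an Il1rl1 transcript, which encodes the IL-33 receptor, had higher levels of part of the group. The 539 cells with Il1rl1 stood at 4164 CPM and the 2294 cells without it at 3653 CPM, a ratio of 1.14 (1.11 to 1.17), or 1.17 (1.14 to 1.21) without Odc1. Of 34 counted genes, 8 were at least 1.5-fold higher, beside 4.29% of 8950 genes, and 0 were lower, beside 7.01%. The median ratio was 1.25 for these genes and 1.00 over all counted genes. The middle of the cells did not go with the sums, since cells thinned to 1500 UMIs held a median of 4 UMIs of the 38 genes both with and without Il1rl1. Of the cells with Il1rl1, 24 of 464 deep enough to be read stood at 8000 CPM or more of the genes without Odc1. With all cells at that level left out the ratio was 0.993 (0.967 to 1.02), and 0 of 31 counted genes were at least 1.5-fold higher, beside 4.37% of all counted genes, and 2 were lower, beside 7.73%. These cells were picked by the level of the same genes, so a lower ratio without them follows in part from the choice.

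Srm and both counted enzymes of RNA modification led. Srm stood at 55.4 CPM with Il1rl1 and 26.7 CPM without, a ratio of 2.08 (1.65 to 2.60). Mettl1 had a ratio of 2.03 (1.31 to 3.09) and Pus7, a pseudouridine synthase, of 2.01 (1.12 to 3.49). The other genes past 1.5-fold were Ifrd2 at 1.85, the nucleostemin gene Gnl3 at 1.84, Bop1 at 1.62, the mitochondrial import gene Timm8a1 at 1.56 and Myc at 1.54 (1.27 to 1.86). The abundant genes differed less, with Ncl at 1.24 (1.14 to 1.34), Npm1 at 1.05 (0.993 to 1.10) and Odc1 at 1.06 (1.01 to 1.11), so the 3 genes of the polyamine and hypusine step together had 1.07 (1.03 to 1.11). Wdr12 at 0.792, Ctps at 0.837 and Dnph1 at 0.899 were lowest, each with an interval that held 1. The share of cycling cells was 21.0% with Il1rl1 and 25.8% without. Among Treg cells at 8000 CPM or more of the genes without Odc1, 49.0% were cycling, against 28.0% of the rest. The 8 myeloid markers together stood at 247 CPM with Il1rl1 and 720 CPM without, and the 5 melanoma markers at 53.9 and 115 CPM. The ratio within depth bins without melanoma RNA is given in the last section. Beyond leaving out cells with markers of other types, the part of these markers in the difference was not tested. Of the other 120 counted ribosome biogenesis genes, 8 were at least 1.5-fold higher, beside 4.29% of all counted genes, and 0 were lower, beside 7.01%. The median ratio of these 120 genes was 1.11 and their summed ratio 1.05, so they differed little.

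Treg cells with at least 3 UMIs of Areg, the gene of the EGF receptor ligand amphiregulin, differed from those without Areg in Odc1 rather than in the group. The 480 and 1968 cells had a ratio of the sums of 1.08 (1.05 to 1.10), and of 0.983 (0.954 to 1.01) without Odc1. Odc1 stood at 1328 and 999 CPM, a ratio of 1.33 (1.27 to 1.39), and was found in 72.5% and 60.2% of cells thinned to 1500 UMIs. Of 34 counted genes, 2 were at least 1.5-fold higher, beside 2.8% of 8851 genes, and 3 were lower, beside 7.32%. Pus7 at 1.92 (1.02 to 3.46) and Ctps at 1.55 (0.886 to 2.62) were the higher pair, and Atad3a, a mitochondrial ATPase, at 0.473 (0.208 to 0.947), Rrp9, a protein of the U3 particle, at 0.612 (0.329 to 1.06) and Wdr12 at 0.661 (0.414 to 1.02) the lower genes. Myc at 1.01, Ncl at 1.01, Npm1 at 0.945 and Srm at 0.987 were close to level. Myeloid markers stood at 196 CPM with Areg and 801 CPM without. Beyond leaving out cells with markers of other types, their part was not tested. The Areg and Il1rl1 cells overlapped in 156 cells.

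Of the contrasts from which the genes were listed, the widest difference was in 175 cells with at least 2 UMIs of Ccl1, Csf2 and Tnfsf11, cytokine genes that T cells transcribe on strong activation. They held 53 Tconv, 67 CD8+ T and 16 Treg cells and 39 cells of no lineage, and were set against 6048 other T cells of the 3 lineages. The sums were 5639 and 3760 CPM, a ratio of 1.5 (1.47 to 1.53), or 1.65 (1.61 to 1.69) without Odc1. Rrp12, Polr1b, Trmt61a and Akap1 had too few UMIs to be counted, here and in both Treg contrasts above. Of 34 counted genes, 24 were at least 1.5-fold higher, beside 6.46% of 8163 genes, and 0 were lower, beside 19.4%. The median ratio was 1.75, against 0.925 over all counted genes.

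All 7 genes of box C/D and H/ACA particles were among the 24, from Fbl at 1.55 to Gar1 at 2.06, and so were the 3 counted mitochondrial genes, from Timm8a1 at 1.92 to Atad3a at 2.08. Ifrd2, which binds inactive ribosomes, had 28 UMIs in these cells and a ratio of 2.63 (1.70 to 3.93). The large subunit factors Ppan at 2.49 (1.88 to 3.25) and Nop16 at 2.44 (1.97 to 2.99) followed. Srm stood at 102 and 44.7 CPM, a ratio of 2.29 (1.92 to 2.72), Myc at 87.7 and 46.8 CPM, a ratio of 1.87 (1.55 to 2.25), Npm1 at 1546 and 981 CPM, a ratio of 1.58 (1.51 to 1.65), and Ncl had a ratio of 1.44 (1.34 to 1.56). Odc1 was lowest, at 566 and 679 CPM with a ratio of 0.834 (0.776 to 0.895), before Wdr12 at 1.06 (0.708 to 1.53) and Dnph1 at 1.08 (0.643 to 1.72). That order of Odc1 held for the mixture of lineages, of which Treg cells made up 9.14% in these cells. Within lineages its ratio was 1.52 (1.32 to 1.75) in Tconv and 1.36 (1.21 to 1.52) in CD8+ T cells, and 0.815 (0.664 to 0.990) in the 16 Treg cells.

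The other genes of the pathway went with the group, and no counted gene of the Myc network was at least 1.5-fold higher. Of 117 counted ribosome biogenesis genes outside the group, 39 were at least 1.5-fold higher and 1 was lower, with a median of 1.36. Over all counted genes the shares were 6.46% higher and 19.4% lower, which also stand beside the lists that follow. Bysl at 3.21 (2.26 to 4.48), a small subunit factor, Noc3l at 2.45 and Utp20 at 2.23 were highest, and Ddx55 at 0.643, Nol9 at 0.705 and Nol10 at 0.751 lowest. Of 8 counted genes of the Myc network, 0 were higher and 3 were lower, namely Mxi1 at 0.363 (0.224 to 0.558) and Mxd1 at 0.414 (0.324 to 0.521), whose proteins compete with Myc for Max, and Max at 0.635. None of 79 counted cytosolic ribosomal protein genes was past 1.5-fold, with a median of 1.13.

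These cells were deeper, with a median of 5839 UMIs against 2950, and 48.6% against 24.0% of them were cycling. Within bins of total UMIs the ratio of the sums was 1.25, and 8 of 34 counted genes were at least 1.5-fold higher, beside 3.88% of all counted genes, and 1 was lower, beside 12.8%. Without cycling cells the ratio was 1.81, and 15 of 18 counted genes were higher, beside 7.07%, and 0 were lower, beside 21.5%. The myeloid markers stood at 109 CPM in these cells and at 691 CPM in the others, and the melanoma markers at 2.81 and 209 CPM. Ratios without cells that held markers of other types are given in the last section. Beyond that, the part of these markers in the difference was not tested.

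**Figure D3:**
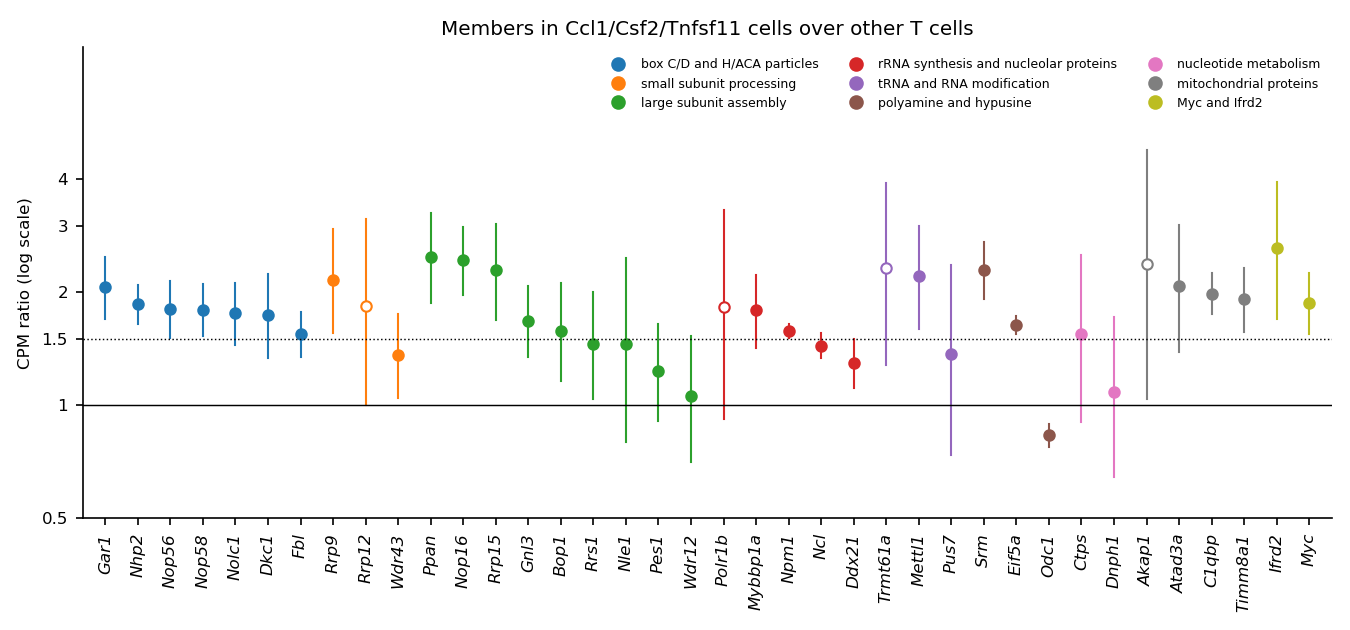
Ratio of CPM for each of the 38 genes, cells with at least 2 UMIs of Ccl1, Csf2 and Tnfsf11 over other T cells, grouped by step of the pathway on a log axis, with lines for 95% intervals of counting error, open points for genes not counted and a dotted line at 1.5-fold. Of 34 counted genes, 24 lie at or past the line and Odc1 alone lies below 1, at 0.834 over the mixed lineages, against 1.52 within Tconv and 1.36 within CD8+ T cells.

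Within lineages, the group was higher in cells with a Myc transcript, a contrast outside the rule that listed the genes, although Myc is among them. Myc was left out of the sums here, Odc1 too, and cells were compared within bins of total UMIs. The ratio of cells with a Myc UMI to cells without was 1.39 (1.35 to 1.43) in Treg cells, 1.70 (1.63 to 1.77) in Tconv cells and 1.37 (1.34 to 1.40) in CD8+ T cells. In Treg cells 19 of 33 counted genes were at least 1.5-fold higher, beside 5.12% of 9076 genes, in Tconv cells 22 of 28, beside 9.25% of 6755, and in CD8+ T cells 13 of 36, beside 4.33% of 8635. Without cells that held 2 or more melanoma UMIs the ratios were 1.42, 1.55 and 1.37. When cells at 8000 CPM or more of the 37 genes without Odc1 were left out as well, they were 1.21 (1.18 to 1.25), 1.14 (1.08 to 1.2) and 1.16 (1.13 to 1.19), a lower value that follows in part from picking cells by these genes. A Myc UMI is a single draw of a rare transcript, so cells without one may also express the gene.

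Srm stood high in each of the 3 lineages, with ratios of 2.16 (1.72 to 2.70) in Treg cells, 4.34 (3.09 to 6.1) in Tconv cells and 1.88 (1.60 to 2.21) in CD8+ T cells. In Treg cells Atad3a at 2.60 (1.64 to 4.11), Pus7 at 2.39 and Ifrd2 at 2.25 were above it. In Tconv cells Rrp15, a large subunit factor, at 4.10 and Gnl3 at 3.33 came next. In CD8+ T cells Dnph1 at 2.37 (1.61 to 3.47) was highest. Odc1 differed less than the sum of the other genes. Its ratio was 1.21 (1.15 to 1.26) in Treg, 1.15 (1.02 to 1.28) in Tconv and 1.05 (0.964 to 1.14) in CD8+ T cells.

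Other states of the cells went with smaller differences of the group within bins of total UMIs, apart from cycling Tconv cells. Cycling cells had ratios of 0.972 in Treg and 0.992 in CD8+ T cells, and of 1.45 in Tconv cells, which was 1.08 (0.991 to 1.17) without cells that held 2 or more melanoma UMIs. The deepest bin, above 10000 UMIs, has no upper edge, so depth was not matched within it. There 94.3% of Treg and 92.5% of CD8+ T cells were cycling, so few cells outside the cycling gate were compared in that bin. Cells with at least 2 UMIs of Nr4a1, Nr4a3, Egr1, Egr2 and Egr3, which T cell receptor signals induce early, had 1.07, 1.13 and 0.977, and Tconv had 0.997 without melanoma RNA. In Treg cells with the early receptor genes, 7 of 33 counted genes were at least 1.5-fold higher, beside 4.58% of all counted genes, and 1 was lower, beside 2.33%, with a median of 1.26. Myc at 1.80 (1.46 to 2.20) and Wdr43 at 1.79 were highest, Odc1 was at 1.30 (1.24 to 1.35), and Npm1 at 0.898 and Dnph1 at 0.638 were below 1. Leaving out cells at 8000 CPM or more and those with 2 or more melanoma UMIs, the Treg ratio was 1.03 (1.00 to 1.06). That fall follows in part from picking cells by these genes. In Tconv cells 5 of 30 genes were higher, beside 13%, and 1 was lower, beside 5.14%. In CD8+ T cells 1 of 35 was higher, beside 5.8%, and 0 were lower, beside 2.06%.

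**Figure D4:**
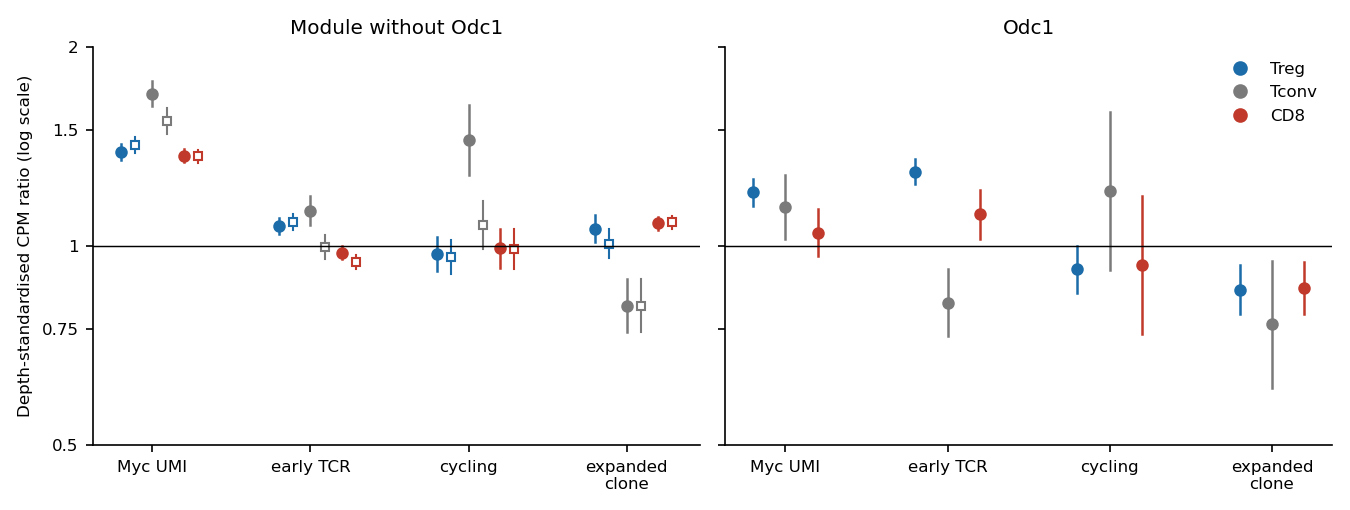
Ratio of CPM of cells in a state over cells of the same lineage outside it, within bins of total UMIs, for the genes without Odc1 (left) and for Odc1 (right) on a log axis, with lines for 95% intervals of counting error. Filled points are all cells and open squares are cells with fewer than 2 melanoma UMIs. Cells with a Myc UMI lie at 1.39, 1.70 and 1.37, and the cycling Tconv cells move from 1.45 to 1.08.

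The genes also moved together from cell to cell. After thinning to 1500 UMIs, cells with at least 4 UMIs of the 34 genes other than Npm1, Odc1, Eif5a and Ncl were set against cells with at most 1, each gene being left out of its own sum. The median ratio was 4.42 over 21 genes in Treg cells, 2.74 over 12 in Tconv cells and 3.38 over 17 in CD8+ T cells. Timm8a1 at 9.45, Nhp2 at 5.32 and Srm at 6.63 were highest in the 3 lineages, and Odc1 was lowest in each, at 1.25, 0.996 and 1.10. All these genes were read from the same cells and library, so this is a description of cells that share a level. No value over all genes stands beside these ratios. How far they rest on the few high cells described next was not tested.

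A small number of cells stood far above the rest. Among 5263 lineage cells with at least 1500 UMIs and fewer than 2 melanoma UMIs, 126 (2.39%) stood at 8000 CPM or more of the 37 genes without Odc1. The threshold was set after the distribution was seen, and 79 cells lay between 7000 and 9000 CPM, so these cells are the end of a range and not a type. They held 5.26% of all UMIs and 18.2% of the UMIs of the 37 genes, which follows in part from how they were picked. The share of a gene's UMIs in these cells ran from 6.58% for Odc1 and 14.0% for Ddx21 to 36.2% for Srm and 40.1% for Dnph1.

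The high cells were found in every lineage, as 51 of 2366 Treg cells (2.16%, 1.61 to 2.82%), 20 of 1479 Tconv cells (1.35%, 0.828 to 2.08%) and 55 of 1418 CD8+ T cells (3.88%, 2.94 to 5.02%). Treg cells with Il1rl1 held 24 of 464 (5.17%, 3.34 to 7.60%) and those without held 27 of 1902 (1.42%, 0.938 to 2.06%). Cells with Ccl1, Csf2 and Tnfsf11 held 21 of 167 (12.6%, 7.96 to 18.6%) and other T cells 109 of 5132 (2.12%, 1.75 to 2.56%). Treg cells with at least 3 Areg UMIs held 13 of 435 (2.99%), against 34 of 1601 (2.12%) without Areg, and these intervals overlapped. Without the high cells Srm had a ratio of 1.21 (0.852 to 1.69) and Myc of 1.34 (1.08 to 1.66) between Treg cells with and without Il1rl1. The ratio of the sums for the Ccl1, Csf2 and Tnfsf11 cells was 1.26 without them, and 12 of 29 counted genes were at least 1.5-fold higher, beside 4.79%, and 0 were lower, beside 17.7%. As above, a fall of these ratios follows in part from leaving out cells by the level of the same genes.

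Genes outside the threshold were read in the same cells. Other ribosome biogenesis genes had summed ratios of high cells over the rest of 2.19 (2.12 to 2.26) in Treg, 1.91 (1.81 to 2.02) in Tconv and 1.80 (1.76 to 1.85) in CD8+ T cells. In Treg cells 37 of 58 counted genes of that list were at least 1.5-fold higher, beside 17.7% of all counted genes, and 1 was lower, beside 31.8%. In Tconv cells 7 of 13 were higher, beside 18%, and 0 were lower, beside 28.2%. In CD8+ T cells 75 of 101 were higher, beside 17.1%, and 0 were lower, beside 28.1%. Odc1 was 1.29 (1.18 to 1.40), 2.37 (2.01 to 2.79) and 1.63 (1.45 to 1.83) times as high.

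The Myc network, a list that holds partners and antagonists of Myc, was lower in sum in the high cells. Its summed ratios were 0.442 in Treg, 0.603 in Tconv and 0.519 in CD8+ T cells. In Treg cells 5 of 6 counted genes were at least 1.5-fold lower, beside 31.8% of all counted genes, and 1 was higher, beside 17.7%. In Tconv cells 2 of 3 were lower, beside 28.2%, and 0 were higher, beside 18%. In CD8+ T cells 5 of 8 were lower, beside 28.1%, and 0 were higher, beside 17.1%. Max had ratios of 0.534 (0.359 to 0.766), 1.15 (0.605 to 1.98) and 0.765 (0.527 to 1.08). Mxd4, whose protein represses targets of Myc, was at 16.2 and 117 CPM in high and remaining Treg cells, a ratio of 0.138 (0.0555 to 0.286), and at 4.10 and 55.5 CPM in CD8+ T cells, a ratio of 0.0738 (0.0152 to 0.217). It rested on 7 and 3 UMIs in the high cells, and it was named after its values were seen. Cytosolic ribosomal proteins were at 1.21, 1.04 and 1.10.

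High cells had a median of 5640 UMIs against 3341 in Treg, 6221 against 2788 in Tconv and 11136 against 4396 in CD8+ T cells. Of the high Treg cells 49.0% were cycling, against 28.0%, with 20% against 15.4% in Tconv and 63.6% against 38.5% in CD8+ T cells. Expanded clones made up 3 of 36 high Treg cells with a TCR, 0 of 16 Tconv cells and 19 of 51 CD8+ T cells, against 109 of 1723, 63 of 1097 and 278 of 1092 among the rest. Cells with 2 or more beta chains, which mark doublets, numbered 1, 2 and 3, and myeloid markers stood at 6.93, 14.7 and 31.4 CPM in high cells against 641, 505 and 841 CPM in the rest.

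**Figure D5:**
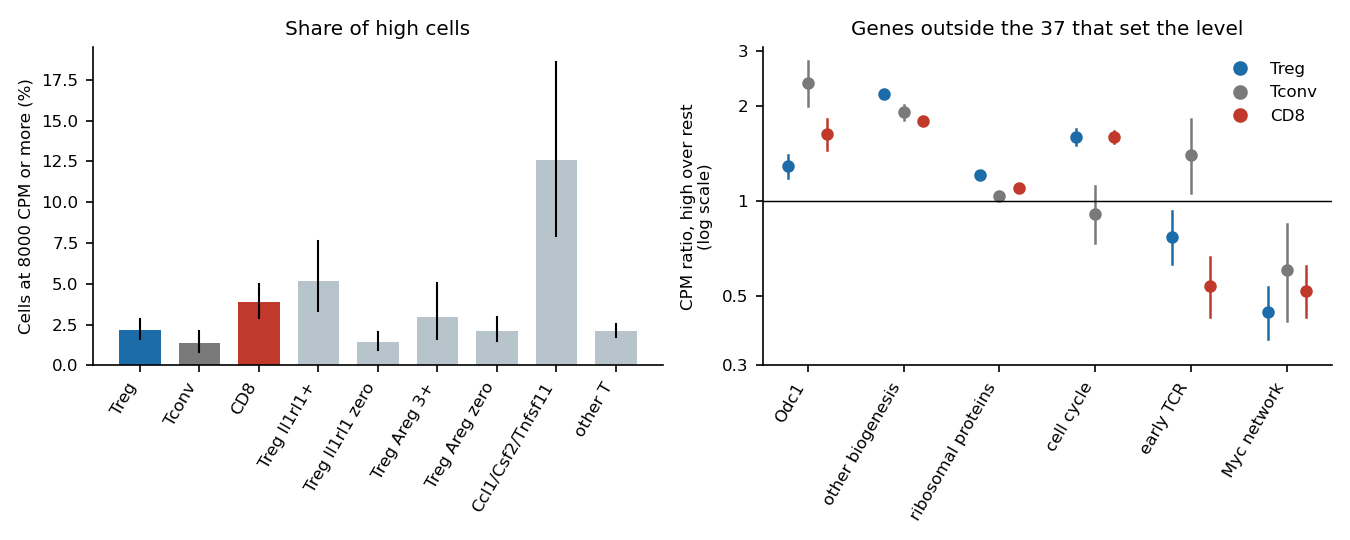
Left, percent of cells at 8000 CPM or more of the 37 genes without Odc1 by group, as bars from 0 with exact binomial 95% intervals. Right, ratio of high cells over the rest on a log axis for Odc1 and 5 gene lists in Treg, Tconv and CD8+ T cells. Cells with Ccl1, Csf2 and Tnfsf11 reach 12.6% and Treg cells with Il1rl1 5.17%, and other ribosome biogenesis genes lie at 2.19, 1.91 and 1.80.

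The tumor comparison, for which the study was made, rested on few cells because only 1047 cells had hashtag UMIs that pointed to 1 tumor. The labels themselves were thin, since the barcodes held 1378 UMIs of the 4 tags in all and 1 UMI was enough for a label. Whether stray tags gave some of the labels was not tested. Treg cells numbered 281 from B16 and 57 from B16–IL-33. The sums were 3591 and 3476 CPM, a ratio of 0.968 (0.894 to 1.05) of B16–IL-33 over B16, and 0.903 (0.820 to 0.992) without Odc1. Within bins of total UMIs both turned, to 1.07 (0.985 to 1.16) and 1.04 (0.948 to 1.15). Only 9 genes were counted, of which 1 was at least 1.5-fold higher, beside 9.34% of 2751 genes, and 1 was lower, beside 13.7%. Fbl, the methyltransferase of box C/D particles, was at 1.52 (0.933 to 2.37), Odc1 at 1.15 (0.995 to 1.33) and Nop58 at 1.13, and C1qbp, a mitochondrial matrix protein, at 0.514 (0.230 to 1.01), Eif5a at 0.686 (0.535 to 0.869), Ncl at 0.778 and Npm1 at 0.892.

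The tags of a tumor differed by more than the tumors. The sums were 2965 and 3874 CPM for the B16 tags and 4095 and 3132 CPM for the B16–IL-33 tags, so the ranges overlapped, and the ratio was 1.38 with tags numbered 1 and 0.809 with tags numbered 2. Myc and Srm were not counted. Myc had 17 UMIs in B16–IL-33 and 56 in B16, a ratio of 2.19 (1.19 to 3.82), and Srm had 5 and 50 UMIs, a ratio of 0.720 (0.224 to 1.79). No high cell was found among the 48 B16–IL-33 Treg cells deep enough to be read, which allows a share of up to 6.25% by 3 counts of the total and 7.40% by the exact interval, against 3 of 250 in B16 (1.2%, 0.248 to 3.47%). In Tconv cells the ratio was 1.12 (0.944 to 1.31) from 17 and 170 cells. In CD8+ T cells it was 0.730 (0.656 to 0.810) from 21 and 142 cells, or 0.918 (0.825 to 1.02) within bins of total UMIs.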

How the data were processed

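Gene expression, hashtag and TCR libraries of 1 pool of sorted tumor T cells were used. The authors deposited raw counts of UMIs per gene and barcode without normalization, from an alignment to mouse mm10 joined with the human genome. The matrix header names Cell Ranger 3.1.0 and the submitters' processing notes name Cell Ranger 6.1.1. Hashtags and TCR contigs likewise came as deposited UMI counts. Of the 14035 barcodes of the gene expression matrix, 11756 were shared with the hashtag matrix and 6665 with the TCR table. Human UMIs (8562) were not used.

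Barcodes with at least 200 genes and under 5% mitochondrial UMIs were kept with no upper limit. Counts were summed over cells as CPM. Levels had exact Poisson, ratios exact conditional binomial and shares Clopper-Pearson intervals at 95%, while ratios within bins of total UMIs (edges at 1000, 2000, 3000, 4000, 6000 and 10000) used a normal approximation. With 1 library no p-value was computed. Doublets were not removed. The member genes and gene lists were chosen with earlier results of these data known. The text names, per comparison, the 3 highest and 3 lowest counted members, and Myc, Ncl, Npm1, Odc1 and Srm, and for wider lists of interest the 3 highest and lowest. The alternatives were other limits on cells, gates, weights, denominators, depth bins and folds. The analyses without Odc1, without cells at 8000 CPM or more, without melanoma RNA and within lineages were added after the data were seen. Promoter windows were RefSeq sequences of GRCm38.p6. Python 3.11.15, NumPy 2.4.6, SciPy 1.17.1 and pandas 2.3.3 were used. The code for the ratios was run on simulated Poisson counts, which is the model that the intervals assume. The simulation held no spread between cells, so it checks the code and not the intervals in real cells.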

Additional observations from a re-analysis of the deposited data

Results flagged for a closer look

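The ratio of the 38 genes between cells with Ccl1, Csf2 and Tnfsf11 and the other cells of a lineage pointed in different directions. It was 1.45 (1.37 to 1.53) in Tconv cells and 1.57 (1.52 to 1.61) in CD8+ T cells, but 0.934 (0.845 to 1.03) in Treg cells, where it rested on 16 cells. The difference between lineages was not tested, since each lineage is 1 sample.

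Cells of expanded clones, with at least 2 cells of a clonotype in the lineage, were compared within bins of total UMIs. Their ratios were 1.01 (0.966 to 1.05) in Treg, 0.804 (0.738 to 0.875) in Tconv and 1.07 (1.04 to 1.09) in CD8+ T cells. This difference was not tested either, and the Tconv value came from 63 cells.

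Outside the T cells, 70 cells with melanoma markers and no CD3 UMI had the 38 genes at 6470 CPM (6372 to 6568), above the 3856 CPM of the 3 T cell lineages. They had a median of 42540 UMIs, and Odc1 stood at 413 CPM in them.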

How the results depend on the processing

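A turn in the ratio of the sums was counted only where the interval of the main value excluded 1. By that count 94 of 103 alternative values did not turn, and 35 moved by less than counting error. The tumor comparison, at 0.968 (0.894 to 1.05), could not be counted as turned, although several of its values below lie above 1. The number of genes past 1.5-fold in either direction stayed within 1.5 times its value in 76 of 110. In the order with and without Il1rl1, with and without Areg, Treg over Tconv, CD8+ over Tconv, CD8+ over Treg, Ccl1, Csf2 and Tnfsf11 cells, and B16–IL-33 over B16, the ratios within depth bins were 1.18, 1.10, 1.02, 0.961, 0.988, 1.25 and 1.07, and also without melanoma RNA 1.19, 1.11, 1.07, 1.00, 0.988, 1.28 and 1.08. Depth bins left 7 genes past the fold in CD8+ over Tconv, 4 in CD8+ over Treg, 9 in the Ccl1, Csf2 and Tnfsf11 cells and 1 between tumors, and 3, 4 and 9 for the first of these also without melanoma RNA. Without melanoma RNA alone Treg over Tconv was 1.18 and CD8+ over Tconv 1.33. Without Odc1 the first 6 were 1.17, 0.983, 0.931, 1.37, 1.47 and 1.65, and without the 3 genes with the most UMIs 1.30, 1.02, 0.958, 1.36, 1.42 and 1.70. Without cells at 8000 CPM or more they were 0.993 for Il1rl1, 1.12, 1.2 and 1.07 for the 3 lineage comparisons in that order and 1.26 for the Ccl1, Csf2 and Tnfsf11 cells, with 2, 3 and 12 genes past the fold for Il1rl1, Areg and those cells. Averaging CPM over cells gave 1.08 for Il1rl1 (5 genes), 1.11 for Areg (3 genes), 1.13 for CD8+ over Tconv, 1.03 for CD8+ over Treg, 1.58 for the Ccl1, Csf2 and Tnfsf11 cells and 1.05 between tumors. Stricter gates gave 5 genes for Il1rl1, 1.03 and 3 genes for Areg, and ratios of 1.12 for Treg over Tconv, 1.11 for CD8+ over Treg, 1.57 for the Ccl1, Csf2 and Tnfsf11 cells and 1.10 between tumors. A limit of 2500 genes gave 0 genes for Areg, 1.08 for Treg over Tconv, 1.09 and 6 genes for CD8+ over Tconv, 1.01 for CD8+ over Treg, and 1.10 and 1 gene between tumors. Without cycling cells there were 1 gene for Areg, 1.07 for Treg over Tconv, 1.03 and 4 genes for CD8+ over Tconv, 0.966 and 12 genes for CD8+ over Treg, 1.81 and 15 genes for the Ccl1, Csf2 and Tnfsf11 cells, and 1.16 and 0 genes between tumors. Without doublets and cells with markers of other types the lineage ratios were 1.19, 1.38 (19 genes) and 1.16, and 1.57 for the Ccl1, Csf2 and Tnfsf11 cells. With a denominator without ribosomal protein, mitochondrial and gating genes they were 1.01, 1.27, 1.26 and 1.59, with 1 gene between tumors. Cells with a CD3 UMI gave 1.13 for Treg over Tconv and 1.29 for CD8+ over Tconv. Within Treg, Tconv and CD8+ T cells the Ccl1, Csf2 and Tnfsf11 cells gave 0.934 (0 genes), 1.45 (8 genes) and 1.57. Tags numbered 1 gave 1.38 and tags numbered 2 gave 0.809 with 1 gene between tumors. At 2-fold 3, 1, 2, 2, 5, 9 and 0 genes were past the fold. Of single genes past 1.5-fold, 3 values turned: Rrp9 by Areg without cycling cells (1.04), Srm in CD8+ over Tconv within depth bins (0.920) and Npm1 in Ccl1, Csf2 and Tnfsf11 cells within Treg (0.855). Of genes under that fold, Odc1 in the Ccl1, Csf2 and Tnfsf11 cells turned to 1.08 without cycling cells, 1.52 within Tconv and 1.36 within CD8+ T cells, and Srm in Treg over Tconv to 1.08 without melanoma RNA. The cause of these shifts was not tested. With 1 pool, the spread between animals is unknown, and 29 of 38 genes could not be counted between tumors. No paired analysis was possible because no group had replicates and no test was made.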
